A study of Homo sapiens with 6 samples.

Results

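Receptor-type protein tyrosine phosphatases (receptor PTPs) were examined in MDA-MB-231 cells, an established line from a triple-negative breast tumor, after treatment with nitidine chloride (NCD), a plant alkaloid. The genes were PTPRA, PTPRB, PTPRE, PTPRF, PTPRG, PTPRJ, PTPRK, PTPRM, PTPRS and PTPRU, 10 of the 63241 Ensembl genes counted in each library and 10 of the 20 receptor PTP genes of the human genome. They were matched from Ensembl identifiers by symbol, and they were chosen by their measured NCD against DMSO fold changes, with their gene spans in view. Their fold changes are therefore given as a description, with no test. All 10 passed the filter on low counts, as did PTPRH and PTPRR among the 10 family genes left off the list.

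Unmodified MDA-MB-231 cells (genotype WT in the labels) received 5 μM NCD in 1 group and 0.1% DMSO, the vehicle, in the other, each for 24 h, with 3 RNA-seq libraries in each group. The cell line field of all 6 libraries gives MDA-MB-231, but the description field names the cells of NCD replicates 2 and 3 MDA-MB-232 and MDA-MB-233, and which is right was not tested. The labels do not say whether the libraries of a group came from separate cultures, so p-values measure the spread between these samples, which may be technical. Nothing in these data measures phosphatase protein or activity, and in bulk RNA fewer cells and less RNA per cell cannot be told apart.

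Receptor PTPs are transmembrane enzymes that remove phosphate from tyrosine residues, and so act against the tyrosine kinases. An extracellular part that binds adhesion molecules, proteoglycans or matrix is joined through the membrane to a cytoplasmic part with 1 catalytic domain or a tandem pair. Classes differ in the extracellular part: the homophilic adhesion receptors PTPRK, PTPRM and PTPRU, the LAR class with PTPRF and PTPRS, the contactin-binding PTPRG, the fibronectin-repeat receptors PTPRB and PTPRJ, and the short-armed PTPRA and PTPRE, which activate kinases of the SRC family. In epithelial and tumor cells several of them sit at cell contacts and dephosphorylate catenins and growth factor receptors.

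The libraries held 18223594 to 19410833 counts with DMSO and 18232169 to 21629653 with NCD. Values below are CPM, the count relative to the library size as scaled by edgeR's TMM method, and a gene was called at a Benjamini-Hochberg adjusted p below 0.05 in edgeR's quasi-likelihood test over all 15295 tested genes together with an absolute log2 fold change above 1. The summed level of 7 markers of this line, VIM and CD44 among them, ran from 6574 to 6845 CPM with DMSO and from 4206 to 4463 CPM with NCD, while 5 markers that should be low or absent (ESR1, PGR, CDH1, EPCAM and KRT5) summed to 2.95 to 3.17 CPM with DMSO and 4.14 to 4.38 CPM with NCD, nearly all of it EPCAM. Endothelial markers summed to at most 1.41 CPM. Leukocyte markers summed to 81.5 to 90.9 CPM with DMSO and 86.6 to 95.9 CPM with NCD, nearly all of it CD68, a lysosomal protein also made by other cells, and 4 of the 6, PTPRC (CD45) among them, had at most 3 counts in any library. DMSO replicate 2 stood apart from the other DMSO libraries: it was the highest of its group for 9 of the 10 receptor PTPs, against 45.1% of all tested genes. NCD replicate 3 stood apart in its group, with a chi-square per degree of freedom of 14.4 and 12.9 against the other NCD libraries, which differed from each other by 2.05, and the values for DMSO replicate 2 were 15.4 and 7.89 against 4.17.

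Transcription start regions of 4 members are shown first, to set the 3 members with the lowest fold changes beside PTPRS, whose fold change was nearest to 0. The windows are RefSeq's on GRCh38.p14 and run from 250 bases before the start to 50 bases after it. Capitals mark GGGCGG or its complement CCGCCC, the GC box, in either orientation and with overlaps allowed.
PTPRG, chr3:61561321-61561620, plus strand: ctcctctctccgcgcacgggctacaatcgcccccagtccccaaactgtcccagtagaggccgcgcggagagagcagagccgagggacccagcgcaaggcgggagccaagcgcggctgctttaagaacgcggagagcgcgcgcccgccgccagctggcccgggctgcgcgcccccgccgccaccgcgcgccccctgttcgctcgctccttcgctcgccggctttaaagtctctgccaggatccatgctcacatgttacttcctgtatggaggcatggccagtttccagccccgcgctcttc
PTPRM, chr18:7567066-7567365, plus strand: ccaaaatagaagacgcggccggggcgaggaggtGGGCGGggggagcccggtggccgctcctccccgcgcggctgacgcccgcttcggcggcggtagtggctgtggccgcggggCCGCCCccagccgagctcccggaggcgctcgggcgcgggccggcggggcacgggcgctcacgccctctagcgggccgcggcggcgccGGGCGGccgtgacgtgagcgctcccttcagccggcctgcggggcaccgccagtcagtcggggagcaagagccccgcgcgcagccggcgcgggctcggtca
PTPRK, chr6:128520550-128520849, minus strand: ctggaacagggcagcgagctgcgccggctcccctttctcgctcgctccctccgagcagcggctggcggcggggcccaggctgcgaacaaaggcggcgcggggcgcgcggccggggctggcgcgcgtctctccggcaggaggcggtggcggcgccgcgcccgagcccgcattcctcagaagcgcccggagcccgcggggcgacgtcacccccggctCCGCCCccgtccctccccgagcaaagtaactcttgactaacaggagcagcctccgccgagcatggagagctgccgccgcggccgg
PTPRS, chr19:5340763-5341062, minus strand: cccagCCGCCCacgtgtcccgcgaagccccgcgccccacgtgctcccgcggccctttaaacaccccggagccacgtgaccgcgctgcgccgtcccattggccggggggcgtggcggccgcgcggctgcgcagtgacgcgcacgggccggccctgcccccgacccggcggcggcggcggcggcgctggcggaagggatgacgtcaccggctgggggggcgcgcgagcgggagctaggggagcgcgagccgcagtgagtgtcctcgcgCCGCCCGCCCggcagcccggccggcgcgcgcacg
The PTPRG window held 34 CpG dinucleotides, that of PTPRM 50, that of PTPRK 44 and that of PTPRS 55, against a median of 14 over all 35116 windows. The GC box was found 0 times for PTPRG, 3 times for PTPRM, 1 time for PTPRK and 3 times for PTPRS, and 45.0% of all windows held it. TATAAA or its complement TTTATA was in none of these 4 windows and in 11.5% of all windows. Windows were matched for PTPRA, PTPRE, PTPRF, PTPRG, PTPRK, PTPRM, PTPRS and PTPRU, 8 of the 10 members, and PTPRB and PTPRJ had no entry. PTPRM has another window whose sequence held 2 CpG dinucleotides and 1 TATAAA or TTTATA, and which start the cells used was not measured. The windows of PTPRR, outside the list, held 1 to 3 CpG dinucleotides.

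With DMSO, the receptor PTPs covered a wide range of levels. Per kb of the longest annotated transcript, PTPRA was the most abundant at 21.1 ± 0.192 CPM per kb (SD, n = 3), followed by PTPRF at 19.1 ± 1.40 CPM per kb (SD, n = 3). PTPRM, PTPRG and PTPRJ came next at 13.6, 11.8 and 11.4 CPM per kb, and their ranges overlapped in that order. PTPRK at 4.96 and PTPRS at 4.14 CPM per kb also overlapped, while PTPRE at 2.01, PTPRU at 0.765 and PTPRB at 0.228 CPM per kb were each below the one before in every library. The transcript forms in use were not measured, so these per-length levels rest on the annotation.
With NCD the order changed. PTPRF led at 8.48 CPM per kb, ahead of PTPRA at 6.78 and PTPRS at 4.14 CPM per kb, and PTPRG moved to the last place at 0.0883 CPM per kb. The summed level of the 20 family genes was 91.8 ± 6.02 CPM per kb (SD, n = 3) with DMSO and 28.1 ± 0.152 CPM per kb (SD, n = 3) with NCD, or 30.7% of the DMSO level. PTPRM, PTPRG and PTPRJ made up 14.8%, 12.9% and 12.5% of that sum with DMSO and 2.03%, 0.314% and 5.39% with NCD. PTPRF went from 20.8% to 30.1% of the sum, PTPRS from 4.50% to 14.7% and PTPRR from 2.46% to 14.8%, whereas PTPRA held 23.0% and 24.1%. These shares are of a sum that itself shrank, so a larger share is not a higher level.

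**Figure D1:**
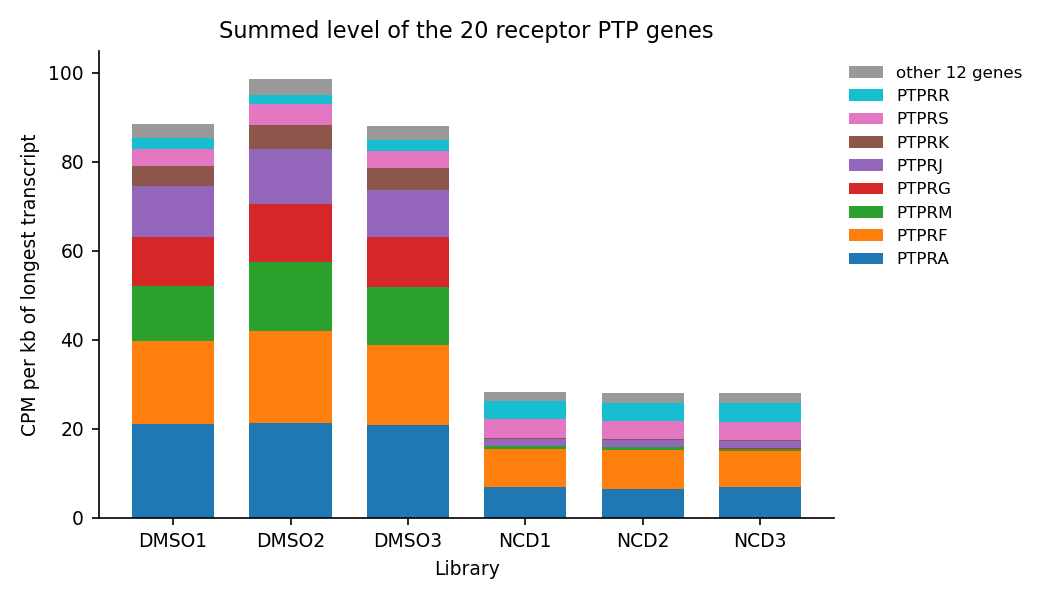
Stacked bars give the summed level of the 20 receptor PTP genes in each of the 6 libraries, in CPM per kb of the longest annotated transcript, with the 8 genes that contribute most with DMSO in color and the other 12 in gray. The NCD bars reach 28.0 to 28.3 and the DMSO bars 88.2 to 98.8, and PTPRM, PTPRG and PTPRJ are thin or not visible in the NCD bars.

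Of the 10 members, 8 were called and lower with NCD and 0 were called and higher; among all tested genes 17.5% were called lower and 13.5% higher, 31.0% in all. The median log2 fold change of the members was -1.78, against 0.04 over all tested genes. In the same 8 the NCD values lay below every DMSO value, as they did for 35.3% of all tested genes, and in 0 members did they lie above every DMSO value, against 37.2% of all tested genes. Because the list was made with this contrast known, nothing is read from these counts. Over the 12 family genes that could be tested, which restores the 2 left off the list, 8 were called lower and 1 higher, and the median was -1.51. Without DMSO replicate 2 the same number of members, 8, was called. The log2 fold changes were then -6.99 for PTPRG, -4.48 for PTPRM, -4.14 for PTPRK, -2.86 for PTPRJ, -1.87 for PTPRE, -1.64 for PTPRA, -1.44 for PTPRU, -1.12 for PTPRF, -0.15 for PTPRB and 0.08 for PTPRS. Without NCD replicate 3 again 8 members were called, with -7.06 for PTPRG, -4.52 for PTPRM, -4.29 for PTPRK, -2.95 for PTPRJ, -1.92 for PTPRE, -1.67 for PTPRA, -1.29 for PTPRU, -1.15 for PTPRF, -0.42 for PTPRB and -0.01 for PTPRS.

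**Figure D2:**
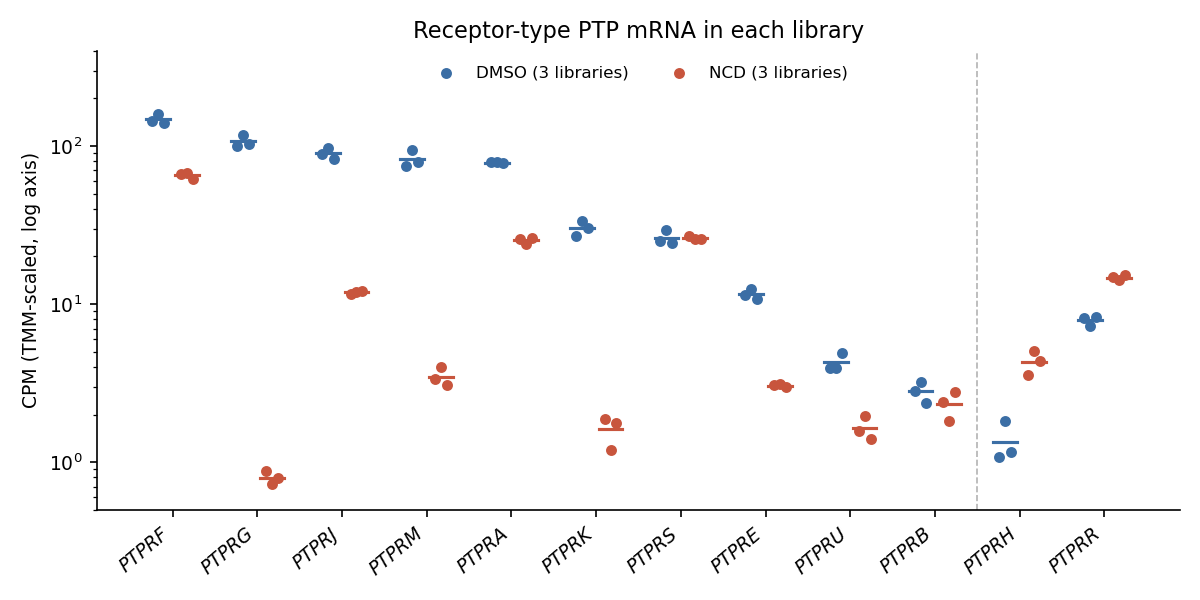
Each point is 1 library, with CPM on a log axis, for the 10 listed receptor PTPs in order of their DMSO mean and, right of the dashed line, PTPRH and PTPRR, and short bars are group means. The groups overlap for PTPRS and PTPRB alone, and PTPRG goes from above 100 CPM to below 1 CPM.

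PTPRG (ENSG00000144724; GRCh38 chromosome 3, 61561569 to 62297613, plus strand) encodes a receptor with a carbonic anhydrase-like extracellular domain that binds contactins. Its level was 100.5, 116.9 and 102.9 CPM in the DMSO libraries and 0.874, 0.724 and 0.793 CPM in the NCD libraries, from 20, 14 and 17 counts. No NCD library came near a DMSO library. The log2 fold change was -7.05 (standard error 0.12), a 132-fold lower level and the lowest value among the members. PTPRG-AS1, a noncoding gene that overlaps PTPRG on the opposite strand, was counted at 171, 182 and 224 in the DMSO libraries and at 163, 142 and 167 in the NCD libraries. It differed by -0.56 on the log2 scale (standard error 0.12, edgeR adjusted p = 0.0021), inside the fold threshold. The strand setting of the counting is not given in the sources used here, so reads of the pair cannot be told apart where they overlap.

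The homophilic adhesion receptors bind the same receptor on the next cell. PTPRM (ENSG00000173482; chromosome 18, 7566782 to 8406861, plus strand) had 75.03, 94.7 and 78.7 CPM with DMSO and 3.36, 3.98 and 3.08 CPM with NCD. PTPRK (ENSG00000152894; chromosome 6, 127968779 to 128520674, minus strand) had 27.0, 33.4 and 30.1 CPM with DMSO and 1.88, 1.19 and 1.77 CPM with NCD. In both, the groups were far apart, with log2 fold changes of -4.58 (standard error 0.13) for PTPRM and -4.21 (standard error 0.16) for PTPRK, and 4.19% and 5.41% of the DMSO level left. ENSG00000265413, an intronic gene that overlaps PTPRM on the same strand, had 3, 14 and 5 counts with DMSO and 0 in each NCD library. It did not pass the filter on low counts. PTPRU, the third of this class that was expressed (ENSG00000060656; chromosome 1, 29236516 to 29326813, plus strand), had only 3.92, 3.96 and 4.93 CPM with DMSO and 1.57, 1.97 and 1.40 CPM with NCD. The groups of PTPRU did not overlap, and its log2 fold change of -1.38 (standard error 0.20) was the least in size of the 3. PTPRT, the remaining member of the class, had 0 counts in every library.

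The LAR class binds heparan sulfate proteoglycans outside the cell and liprins inside it. PTPRF (ENSG00000142949; chromosome 1, 43525187 to 43623666, plus strand), also known as LAR, had 144.4, 160.0 and 139.1 CPM with DMSO and 66.8, 67.5 and 62.2 CPM with NCD. PTPRS (ENSG00000105426; chromosome 19, 5158495 to 5340803, minus strand), a receptor for chondroitin and heparan sulfate, had 25.01, 29.3 and 24.5 CPM with DMSO and 26.9, 26.0 and 26.0 CPM with NCD. The class was split: PTPRF was lower in every NCD library, with a log2 fold change of -1.17 (standard error 0.07), and for PTPRS the NCD libraries lay inside the DMSO range, with a log2 fold change of 0.00 (standard error 0.09). Scaled by library totals in place of TMM, PTPRF came to -0.98 and was no longer called, in a setting that shifts the median of all genes by 0.20. PTPRD, the other LAR receptor, had 0 counts in every library.

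Of the fibronectin-repeat receptors, PTPRJ (ENSG00000149177; chromosome 11, 47980558 to 48170841, plus strand), known as DEP-1, acts on growth factor receptors such as MET. It had 89.1, 97.5 and 82.9 CPM with DMSO and 11.6, 12.003 and 12.2 CPM with NCD, which gives -2.91 (standard error 0.09) on the log2 scale. PTPRB (ENSG00000127329; chromosome 12, 70515866 to 70637440, minus strand), the vascular endothelial phosphatase, had 2.83, 3.23 and 2.36 CPM with DMSO and 2.40, 1.81 and 2.80 CPM with NCD. PTPRJ was separated by a wide gap and PTPRB overlapped between the groups, with a log2 fold change of -0.26 (standard error 0.22). PTPRB stands on 35 to 60 counts per library, and without each library in turn its value ran from -0.42 to -0.11, the former without NCD replicate 3. The endothelial genes CDH5, its cadherin partner in vessels, and TEK, a receptor kinase it acts on, had at most 7 and 2 counts.
PTPRH, of the same class and outside the list, had 1.08, 1.81 and 1.15 CPM with DMSO and 3.58, 5.02 and 4.38 CPM with NCD. It was higher in all 3 NCD libraries and rose by 1.67 on the log2 scale (standard error 0.25, edgeR adjusted p = 0.000259), which is 3.19-fold, and by 1.93 without DMSO replicate 2. PTPRO and PTPRQ of this class had at most 2 counts and 0 counts.

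PTPRA and PTPRE remove the inhibitory phosphate of SRC-family kinases. PTPRA (ENSG00000132670; chromosome 20, 2864184 to 3039076, plus strand) had 78.6, 79.2 and 77.8 CPM with DMSO and 25.6, 24.1 and 26.0 CPM with NCD. PTPRE (ENSG00000132334; chromosome 10, 127907061 to 128085855, plus strand) had 11.5, 12.4 and 10.7 CPM with DMSO and 3.06, 3.10 and 2.98 CPM with NCD. Both were lower in every NCD library and by similar amounts, with log2 fold changes of -1.64 (standard error 0.07) for PTPRA and -1.91 (standard error 0.12) for PTPRE. VPS16, a vesicle-sorting gene that overlaps PTPRA on the same strand, differed by 0.68 on the log2 scale (standard error 0.08, edgeR adjusted p = 7.16e-05), inside the fold threshold, so reads from the shared stretch are uncertain between these genes.
PTPRR, a family gene outside the list that acts on MAP kinases, had 8.20, 7.30 and 8.28 CPM with DMSO and 14.7, 14.1 and 15.3 CPM with NCD. Every NCD library was above every DMSO library, and the difference was 0.89 on the log2 scale (standard error 0.10, edgeR adjusted p = 4.85e-05), inside the fold threshold. It was called with library totals, at 1.09. PTPRZ1, the close relative of PTPRG, and PTPRC, PTPRN and PTPRN2 had at most 10 counts in any library.

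The members spanned 90.3 to 840.1 kb of the genome from first to last annotated base, and longer members tended to have lower fold changes. Across the 10 members the Spearman correlation between gene span and log2 fold change was -0.76, and across 14692 tested genes with a span it was -0.50. Both are descriptions across genes that share the same 6 libraries. The members were chosen with these fold changes and spans in view and cover long genes only, so the 2 values are not comparable. The Spearman correlation with the length of the longest spliced transcript was 0.02 for the members. With the 12 tested family genes the Spearman correlation with span was -0.66. All 10 members were in the upper 2 deciles of span, where the median log2 fold changes of all tested genes were -0.93 (89.7 to 153.1 kb) and -2.09 (153.1 to 2172.9 kb).
PTPRB, PTPRF and PTPRU belong to the lower of these deciles, and their log2 fold changes minus its median were 0.68, -0.24 and -0.45. In the top decile the same difference was 0.18 for PTPRE, 0.45 for PTPRA and -0.82 for PTPRJ. It was -2.12 for PTPRK, -2.49 for PTPRM and -4.96 for PTPRG, the 3 longest members. PTPRG is shorter than PTPRM, at 736.0 against 840.1 kb, and had the lower fold change.
PTPRS was the member furthest above its decile, by 2.09 on the log2 scale. Its annotated span is 182.3 kb, close to that of PTPRE at 178.8 kb and PTPRJ at 190.3 kb. Its longest annotated protein-coding transcript covers 79.9 kb, and whether this bears on its fold change was not tested. The span of the longest protein-coding transcript, a measure chosen after seeing the data, gave a Spearman correlation of -0.94 across the 10 members and -0.77 across the 12 tested family genes. This measure was not computed over all tested genes, so these values stand without a comparison. PTPRR was 2.98 above the median of the top decile at a span of 282.8 kb. Its 6 annotated protein-coding transcripts have starts up to 166.2 kb apart, and the shortest covers 70.0 kb. The outermost starts of PTPRM and PTPRK are further apart, at 804.2 and 512.6 kb. Which transcripts the cells made was not measured.

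**Figure D3:**
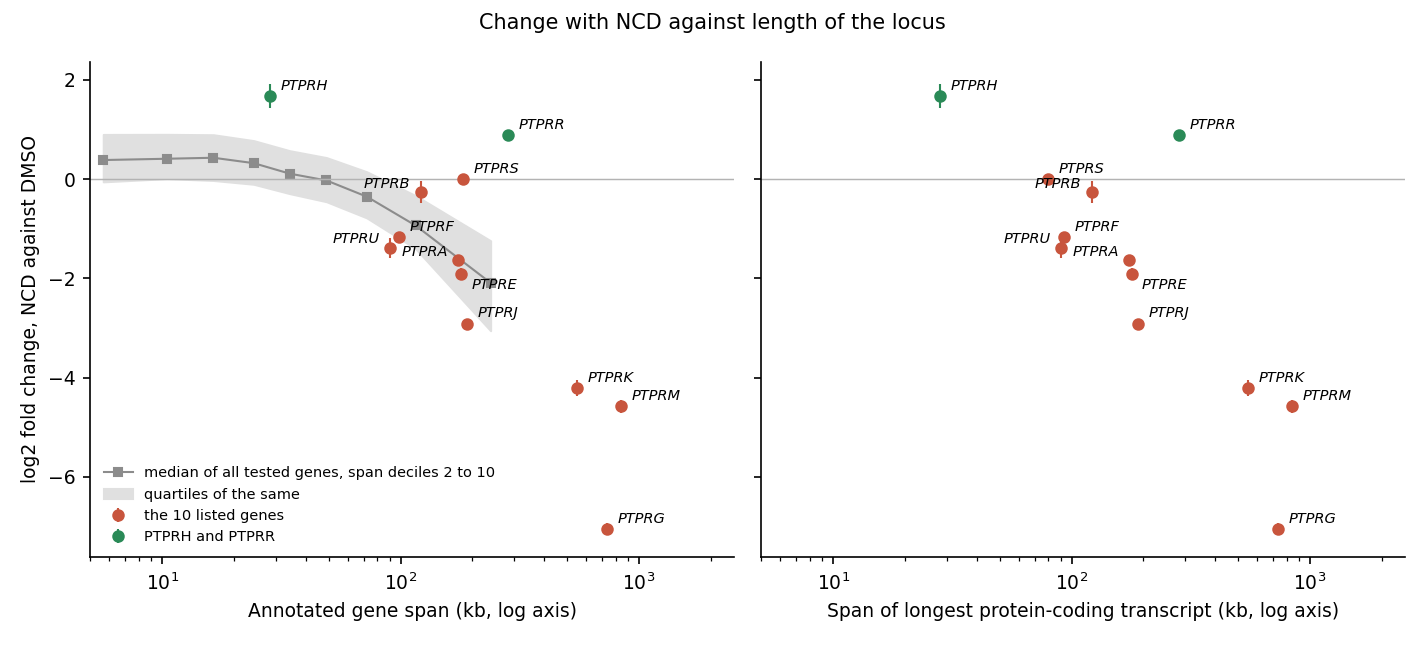
Log2 fold change of NCD against DMSO (points, with standard error bars) for the 10 listed genes and for PTPRH and PTPRR, against annotated gene span on the left and the span of the longest protein-coding transcript on the right, both in kb on log axes. On the left, gray squares and the band are medians and quartiles of all tested genes in span deciles 2 to 10, and PTPRS moves from 182.3 kb on the left to 79.9 kb on the right.

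The non-receptor PTPs, cytoplasmic enzymes with the same catalytic fold, were compared next. Of 17 listed genes 14 could be tested: 7 were called lower, 1 was called higher and 6 were not called, with a median log2 fold change of -0.91. That is 57.1% called, against 31.0% of all tested genes (17.5% lower and 13.5% higher). This list and those below were written with earlier results of these data known, so nothing is read from their counts. The called genes with the smallest p were PTPN14, a regulator of the YAP pathway (-2.48, standard error 0.08, adjusted p = 2.65e-08 from edgeR), PTPN1, known as PTP1B (-1.27, standard error 0.06, adjusted p = 1.5e-07 from edgeR), PTPN9 (-1.13, standard error 0.08, not called with library totals) and PTPN12 (-1.30, standard error 0.10). PTPN4 had the lowest value of the list at -2.69 (standard error 0.22, adjusted p = 5.17e-06 from edgeR). The 1 called higher, named after its values were seen, was PTPN6, known as SHP-1, which went from 6 counts in each DMSO library to 51, 34 and 28 counts with NCD (2.34, standard error 0.33, adjusted p = 0.000209 from edgeR). Across these 14 genes the Spearman correlation between gene span and log2 fold change was -0.86.

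Extracellular ligands and co-receptors of the receptor PTPs gave 14 tested genes of 26, with a median of -0.67. Of these 14 genes 6 were called lower and 1 higher, against 17.5% and 13.5% of all tested genes. GPC6, a glypican, fell from 16.4 ± 0.640 to 0.328 ± 0.0587 CPM (SD, n = 3 in each group), or -5.61 on the log2 scale (standard error 0.17, edgeR adjusted p = 2.27e-08). HSPG2, which encodes perlecan, fell by 2.10 on the log2 scale (standard error 0.11), and THBS1, a thrombospondin that binds PTPRJ, fell by 1.18 (standard error 0.06, not called with library totals). MDK, or midkine, a growth factor that binds PTPRZ1, was the 1 called higher, from 13.9 ± 0.901 to 70.7 ± 6.60 CPM (SD, n = 3 in each group; log2 fold change 2.35, standard error 0.10, adjusted p = 8.91e-08 from edgeR). PTPRZ1 itself had at most 10 counts.
Among 6 tested scaffold genes of 7, 3 were called lower and 0 higher, against 17.5% and 13.5% of all tested genes. The median of the 6 scaffold genes was -1.23. TRIO, an exchange factor that binds PTPRF, fell from 160.7 ± 14.2 to 7.53 ± 0.698 CPM (SD, n = 3 in each group; log2 fold change -4.42, standard error 0.10, adjusted p = 1.16e-08 from edgeR). The liprins PPFIBP1 and PPFIA4 fell by 1.90 and 2.31 on the log2 scale (standard errors 0.09 and 0.19).

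Substrate genes gave 21 tested of 23, of which 8 were called lower, 2 higher and 11 not called, with a median of -0.71. That is 47.6% called, against 31.0% of all tested genes. PARD3, a polarity protein dephosphorylated by PTPRK, had the lowest value at -5.23 (standard error 0.15, adjusted p = 2.3e-08 from edgeR). The receptor kinase genes EGFR (-2.61, standard error 0.08, adjusted p = 2.65e-08 from edgeR) and IGF1R (-2.96, standard error 0.10, adjusted p = 3.78e-08 from edgeR) fell along with PXN, which encodes paxillin (-1.37, standard error 0.07, adjusted p = 2.17e-07 from edgeR). The 2 called higher, named after their values were seen, were PDGFRB at 1.68 (standard error 0.16, adjusted p = 1.83e-05 from edgeR) and JUP, plakoglobin, at 1.62 (standard error 0.11, adjusted p = 1.64e-06 from edgeR). PDGFRB is also a fibroblast marker. Of the 6 fibroblast markers, 4 had at most 3 counts in any library. The summed level of all 6 was 4.19 to 5.48 CPM with DMSO and 18.6 to 19.9 CPM with NCD, nearly all of it COL1A1 and PDGFRB. COL1A1 had 2.71, 2.32 and 3.56 CPM with DMSO and 13.3, 12.7 and 14.8 CPM with NCD. The part of other cells in this was not tested.
Of 11 tested genes for proteases that cut the receptor ectodomains, 2 were called lower and 0 higher, or 18.2% called against 31.0% of all tested genes, and the median was 0.18. ADAM10, which sheds PTPRK and other family members, fell from 213.1 ± 20.7 to 31.6 ± 3.78 CPM (SD, n = 3 in each group; log2 fold change -2.75, standard error 0.10, adjusted p = 6.12e-08 from edgeR). PCSK5, a proprotein convertase with at most 20 counts, fell by 1.61 on the log2 scale (standard error 0.45, adjusted p = 0.0106 from edgeR). FURIN, which cleaves the precursors and is named here for its role after its value was seen, had a log2 fold change of 0.27 and was not called.

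**Figure D4:**
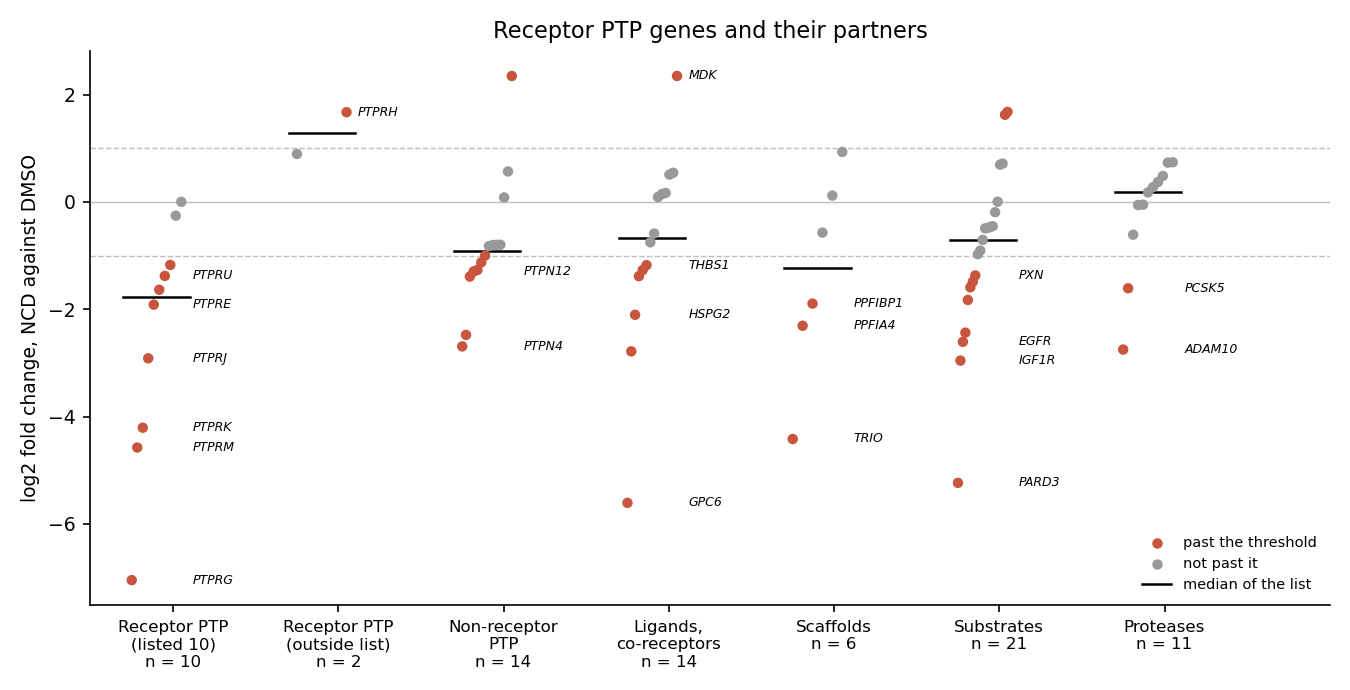
Log2 fold change of NCD against DMSO for each tested gene of 7 lists, with genes past the threshold in red, the others in gray and black bars at the list medians, and dashed lines at 1 and -1. PTPRG is the lowest point and PTPN6 (not named in the plot) and MDK are the highest, at 2.34 and 2.35.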

How the data were processed

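RNA from MDA-MB-231 cells was sequenced, with 3 libraries per group. Per the labels and the methods, the authors aligned reads with HiSat2, estimated expected counts per Ensembl gene with RSEM, and deposited these counts without normalization. GRCh38 is named in the submitters' processing notes, while the annotation release and the strand setting are not given in the sources used here. In each library 25 lines with annotation text and no gene were skipped. Symbols were found for 62666 of 63241 identifiers, and spans came from GENCODE release 29 (58228 identifiers).

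Expected counts were rounded, filtered with filterByExpr, scaled by TMM and compared with glmQLFit and glmQLFTest (edgeR 4.0.16, R 4.3.3), without a block. Standard errors are the absolute log2 fold change over the square root of F. No pair of libraries within a group was alike within sampling noise (chi-square per degree of freedom at least 2.05). The fit was tested on simulated data. DESeq2 1.42.0, limma 3.58.1 (voom), other scalings, filters and thresholds, a prior count of 2 in place of 0.125, a replicate block and leaving out each library were the alternatives.

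The members and the 7 lists were chosen with earlier results of these data known. Named genes are the members, tested family genes, of each other list up to 4 called genes with the smallest p plus the largest change at 5 CPM or more, genes that overlap a member and have 10 or more counts, and the 3 genes most like the member with the lowest change. Total counts limit precision for genes with few counts.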

Additional observations from a re-analysis of the deposited data

How the results depend on the processing

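Of the 10 members, 8 were past the threshold in the main analysis and with DESeq2, limma-voom, RLE size factors, either other filter, no fold threshold and without each library in turn (lowest and highest count 8), and 7 were with library totals, where PTPRF was lost. PTPN9 (-0.93) and THBS1 (-0.98) also came inside the fold threshold with library totals, and the non-receptor PTP genes called lower went from 7 to 5. No member gained a call. Libraries that share a number were not paired in the main fit, since the labels name no shared batch. For numbers 1, 2 and 3 their departures from the group mean had correlations of 0.216, -0.185 and 0.023, which do not settle whether they share a batch. With the replicate number as a block 8 members were past the threshold. The log2 fold change of PTPRS was close to 0 and turned negative with DESeq2 and with RLE size factors (-0.019) and under the minimum of 10 counts per library (-0.015). Leaving out single libraries gave -0.078 to 0.077, and the cause was not tested. The Spearman correlation between span and log2 fold change over the members was -0.76 under every refit and 0.018 with transcript length, and -0.94 with the span of the longest protein-coding transcript, which uses another length by construction. Without a fold threshold, which counts more genes by construction, 10602 genes were past it, with 13 non-receptor PTP, 11 ligand, 5 scaffold, 20 substrate and 8 protease genes and both PTPRH and PTPRR (2). Library totals also gave 2 for the latter. Scaffold genes called higher went from 0 to 1 with library totals and without DMSO replicate 3. With at least 10 counts in every library PCSK5, GPC6, CNTN1 (a contactin of the ligand list) and PTPN6 were not tested. This left 1 protease gene and 0 higher non-receptor PTP genes past the threshold. Ligand genes past it went from 7 to 5, and those called lower from 6 to 4.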

Other observations

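The genes whose pattern over the 6 libraries was most like that of PTPRG, by the root mean square difference of log2 CPM centered on the DMSO mean, were CDH4 (0.158), LPP (0.289) and DPYD (0.345). CDH4 encodes a classical cadherin, LPP a focal adhesion protein and DPYD the enzyme that degrades pyrimidines. Counts of CDH4 were 1506, 1775 and 1663 after DMSO and 18, 17 and 16 after NCD, LPP had 1581, 2249 and 2059 against 35, 20 and 27, and DPYD had 1276, 1467 and 1476 against 12, 20 and 17. Their log2 fold changes were -6.86, -6.44 and -6.69 (standard errors 0.11, 0.17 and 0.15). Values near that of PTPRG follow from the way these genes were picked. Their spans were 688.2, 737.4 and 917.3 kb, beside 736.0 kb for PTPRG. Large falls were common among long genes, with 79.2% of the top decile of span called lower, so nothing is read from these spans.

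The nearest tested protein-coding gene on each side of every member was also read, a choice by position made after the members' values had been seen. The distances ran from 0.6 kb to 9128.8 kb (TNKS1BP1, beside PTPRJ). Of these 20 genes 5 were called lower and 1 higher, against 17.5% and 13.5% of all tested genes, with a median log2 fold change of -0.02 and a median span of 50.9 kb. C3orf14, 21.4 kb from PTPRG and 17.2 kb long, differed by 0.33 on the log2 scale (standard error 0.10, edgeR adjusted p = 0.0194). FHIT, on the other side of PTPRG and 1502.2 kb long, fell by 5.07 (standard error 0.32, adjusted p = 1.04e-06 from edgeR). The level of FHIT was low, at a mean of 3.89 CPM with DMSO and 0.112 CPM with NCD, so the size of its fall is uncertain. MKI67, the proliferation marker 10.8 kb from PTPRE, had -0.45 (standard error 0.13), and DOCK1, on the other side and 547.1 kb long, fell by 4.56 (standard error 0.13, adjusted p = 2.24e-08 from edgeR). KDM4B, a histone demethylase gene 4.9 kb from PTPRS with a span of 184.5 kb, fell by 1.56 (standard error 0.10, adjusted p = 1.4e-06 from edgeR), beside 0.00 for PTPRS.

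On chromosome 12, PTPRB lies between KCNMB4, a potassium channel subunit gene, and PTPRR, which ends 0.6 kb away. KCNMB4 rose by 1.09 on the log2 scale (standard error 0.18, edgeR adjusted p = 0.00059), and with -0.26 for PTPRB and 0.89 for PTPRR none of the 3 was called lower. Long genes that were not called were also found next to PTPRK and PTPRM, where LAMA2 (633.4 kb) had 0.40 (standard error 0.22, adjusted p = 0.137 from edgeR) and LAMA1 (176.1 kb) had 0.04 (standard error 0.25, adjusted p = 0.907 from edgeR). Both laminin genes were low, with 1.29 and 1.61 CPM with DMSO, as PTPRB was.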
